A study of Mus musculus with 91 samples.

Results

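The genes described here, 10 of the 19938 genes measured on the arrays, encode proteins of the PIWI-interacting RNA (piRNA) pathway and partners in transposon silencing. They were chosen by name: *Piwil2* and *Piwil4*, which encode PIWI proteins, *Mov10l1*, *Asz1* and *Ddx4*, the Tudor domain genes *Tdrd1*, *Tdrd5* and *Tdrd9*, and *Mael* and *Morc1*. Each was measured by 1 transcript cluster, the set of probes for a transcribed region, annotated to that gene alone. All 10 reached the limit set for testing, a log2 intensity over 6 in 2 or more arrays of any group of 3. For *Piwil4*, *Mov10l1*, *Asz1*, *Ddx4*, *Tdrd1* and *Morc1*, 6 of the 10, only germ cell groups reached it among the 72 arrays of the 4 lineages, so that limit in part set their difference from somatic cells.

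Mobile elements are silenced in the germ line by piRNAs, short RNAs that guide PIWI proteins to transposon transcripts and, in fetal male germ cells, to the DNA of transposons, which is then methylated. Germ cells pass through a phase of low DNA methylation as they settle in the gonad, and afterwards XX germ cells enter meiosis while XY germ cells stop dividing and take up methylation again. In mice, loss of many of these genes leaves males sterile with active transposons, whereas females are often fertile.

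The study sorted cells of XX and XY fetal mouse gonads a day apart, from E11.5 to E13.5, by fluorescent reporters, to compare how each lineage changes during sex determination. Germ cells carried *Oct4-EGFP* [Tg(Pou5f1-EGFP)2Mnn], in which *Oct4* sequences drive EGFP. Supporting cells carried *Sry-EGFP* [Tg(Sry-EGFP)92Ei] in XX gonads at all stages and in XY gonads at E11.5, and *Sox9-ECFP* [Tg(Sox9-ECFP)2Capl] in XY gonads from E12.5 on, so the reporter differed between the sexes at the later stages. In XY supporting cells the reporter also changed after E11.5, so reporter and stage cannot be told apart there. All 3 lines were bred as progeny of CD-1 and C57BL/6J mice. Endothelial cells carried *Flk1-mCherry* [Tg(Kdr-mCherry)1Medi] on CD-1, and a mixed somatic population *αSma-EYFP* [Tg(Acta2-EYFP)Jll], labelled FVB and kept, per the methods, on FVB mixed with CD-1. The study reports that at E11.5 this mixed population appeared to include supporting cells, with SRY and SOX9 protein, and left it out of its main comparisons. A further somatic sort entered the fits and the somatic means and is not described on its own. Germ and supporting cells thus shared a labelled background, whereas strain and lineage cannot be told apart for the *Flk1-mCherry* and *αSma-EYFP* sorts. Each of the 30 sorted groups had 3 arrays, every array held cells pooled from 1 or more litters, and 1 array of a whole newborn mouse stood apart. Per the methods, which name no stage for this, the germ cell sorts were made from gonads with the mesonephros attached. The E11.5 endothelial sort included a part of the mesonephros, which was removed at E12.5 and E13.5, so dissection and stage cannot be told apart in that sort.

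The *Oct4-EGFP* sorts carried their markers. All 11 germ cell markers lay over log2 6 in each of the 6 groups, and their mean per group ran from 8.59 to 9.54. Among markers of other cells, the 6 Sertoli markers averaged 6.33, 6.29 and 6.26 in XX and 6.45, 6.81 and 6.90 in XY germ cell sorts at successive stages. Of these *Cst9* was at 4.75 and 4.70 in XX and at 7.38 and 7.75 in XY sorts at E12.5 and E13.5. The mean of the 4 red blood cell markers went from 7.28 to 6.41 in XX and from 7.36 to 6.55 in XY germ cell sorts between E11.5 and E13.5, where *Hbb-y* went from 9.16 to 6.83 and from 9.48 to 7.13. The 6 endothelial markers averaged 6.06 to 6.26 in these groups, against 10.33 to 10.77 in the *Flk1-mCherry* groups. Germ cell markers averaged 5.93 to 6.03 in *αSma-EYFP*, 6.08 to 6.30 in supporting and 6.21 to 6.96 in *Flk1-mCherry* groups. The XY *Flk1-mCherry* sort also carried fetal Leydig cell markers, whose mean was 5.66 at E11.5, 8.29 at E12.5 and 10.71 at E13.5. In bulk arrays of sorted cells, fewer cells with a transcript and less transcript per cell cannot be told apart.

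The members were high in germ cells, although not all of them at every stage. Levels are log2 array intensities as deposited, and a member was called where limma gave an adjusted p under 0.05, with Benjamini-Hochberg adjustment over all clusters tested. For *Piwil2*, *Mov10l1*, *Asz1*, *Ddx4*, *Tdrd5*, *Mael* and *Morc1*, each of the 18 germ cell arrays lay above each of the 72 somatic arrays (54 of the other 3 lineages and 18 of *αSma-EYFP* cells), as they did for 4.26% of all clusters tested. For the other three, 13 germ cell arrays of *Tdrd1*, 11 of *Piwil4* and 10 of *Tdrd9* lay above the highest somatic array. In the comparison of germ cells with the mean of the 3 somatic lineages of the same sex and stage, 7 members were called higher in XX and 8 in XY germ cells at E11.5, where 25.3% and 27.0% of all clusters were called higher. At E12.5 and E13.5 all 10 were called higher in both sexes, beside 27.0% and 26.3% of all clusters in XX and 26.0% and 27.0% in XY cells. For the 6 members that reached the limit for testing only in germ cell groups, these calls and the lack of overlap were set in part by that limit. *Piwil2*, *Tdrd5*, *Tdrd9* and *Mael* reached it in somatic groups as well. No member was called lower in any of the 6 comparisons, where 25.4%, 26.2% and 26.6% of clusters were lower in XX and 25.4%, 25.9% and 25.2% in XY germ cells at successive stages. Over the 10 members the median difference was 2.22 log2 units in XX and 4.15 in XY germ cells at E13.5, against -0.03 and 0.02 over all clusters tested.

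**Figure D1:**
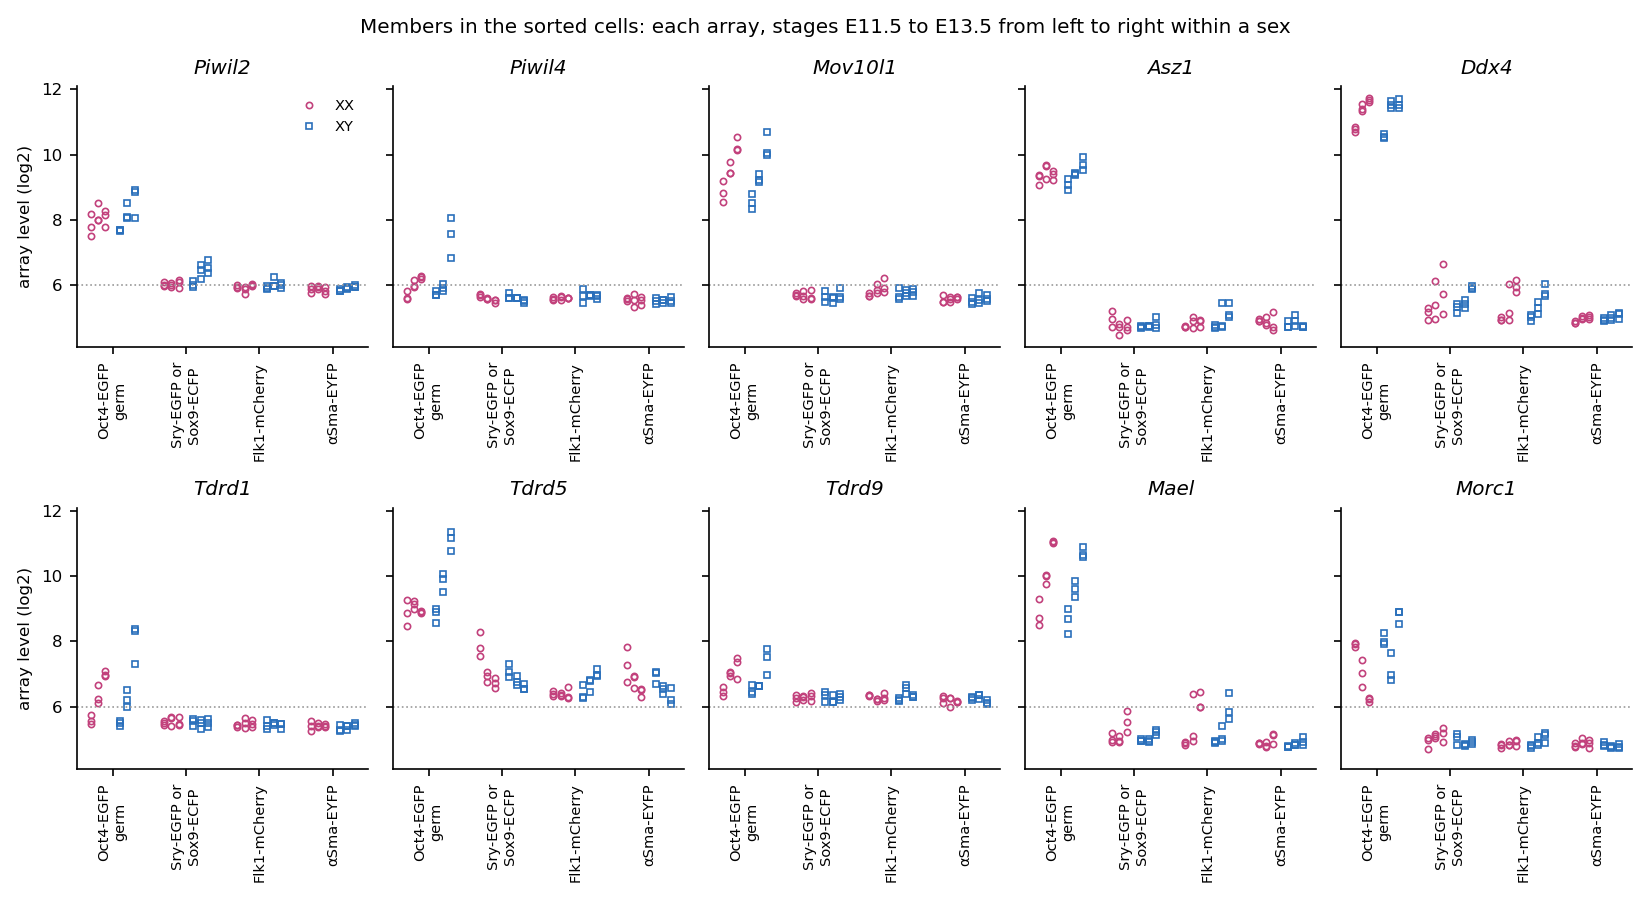
Log2 array level of each of the 10 genes in the arrays of germ, supporting, *Flk1-mCherry* and *αSma-EYFP* cells, by reporter, with XX arrays as circles and XY arrays as squares, and stages from left to right within a sex. The dotted line marks log2 6, the limit for testing. *Asz1*, *Ddx4* and *Mael* stand far above the somatic arrays, and *Tdrd5* lies over the limit in every somatic array shown.

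*Ddx4* (Vasa), an RNA helicase that marks germ cells, was the member with the largest difference. Its 3 XX arrays read 10.79, 10.86 and 10.68 at E11.5, and the mean of the somatic groups was 5.06, a 52.6-fold difference (log2 5.72, 95% interval 5.35 to 6.08, adjusted p = 1.0e-32). At E13.5 it was 63.9-fold higher in XX and 55.3-fold higher in XY germ cells. *Asz1*, an ankyrin repeat protein of the mitochondrial surface where piRNA precursors are cut, was 22.2-fold higher in XX germ cells at E11.5 (adjusted p = 9.1e-39). *Mael*, a protein of the germ granules, was 14.6-fold higher at E11.5 and 44.9-fold higher at E13.5 in XX cells. *Mov10l1*, the helicase that feeds piRNA precursors into processing, was 9.13-fold higher at E11.5 and 22.5-fold higher at E13.5 in the same cells. The somatic mean of these 4 genes lay under log2 6 in every comparison, so each fold rests on a low somatic level.

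Of the PIWI genes, one was called higher in germ cells from the first stage and the other was not. *Piwil2* (MILI), a PIWI protein that binds primary piRNAs, was already 3.66-fold higher in XX and 3.35-fold higher in XY germ cells than in somatic cells at E11.5. *Piwil4* (MIWI2), the nuclear PIWI protein of fetal male germ cells, was not called at E11.5. Its arrays there read 5.58, 5.62 and 5.81 in XX and 5.70, 5.69 and 5.83 in XY germ cells, which overlapped the somatic arrays (5.34 to 5.89). *Tdrd1*, whose Tudor domains bind methylated PIWI proteins, was also not called at E11.5 (1.11-fold in XX, adjusted p = 0.28, and 1.02-fold in XY, adjusted p = 0.83). *Tdrd9*, a helicase that works with MIWI2, was called in XY (1.20-fold, adjusted p = 0.017) but not in XX germ cells at E11.5 (1.14-fold, adjusted p = 0.090, and 0.025 or 0.014 after another quantile normalization or centring on array medians). Without the second E11.5 XY germ cell array the call of *Tdrd9* in XY was lost (adjusted p = 0.19). *Tdrd9* was over log2 6 in 70 of the 72 somatic arrays. Its somatic median, 6.24, lay under the medians of whole arrays (6.56 to 6.81), so somatic transcript cannot be told from background there.

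Between stages, more members were called higher in XY than in XX germ cells at each step, and *Morc1* fell first. From E11.5 to E12.5, 4 members rose and 1 fell in XX germ cells (all clusters: 3.44% higher and 2.00% lower), and 6 rose and 1 fell in XY germ cells (1.79% and 1.94%). From E12.5 to E13.5, 3 rose and 1 fell in XX (4.92% and 5.84%), whereas 7 rose and none fell in XY germ cells (3.69% and 2.98%). Such counts do not test the sexes against each other. Tested directly, the change of the sex difference was called for no member from E11.5 to E12.5 (0.713% of clusters). From E12.5 to E13.5 it was called for *Morc1*, *Tdrd5*, *Piwil4* and *Tdrd1* (1.94% of clusters in this direction). *Mael*, *Mov10l1* and *Tdrd1* rose at both steps in both sexes. The median change of the 10 from E12.5 to E13.5 was 0.22 log2 units in XX and 1.04 in XY germ cells, with 0.00 and 0.01 over all clusters. The part of the red blood cell markers, whose mean went down with stage in both sexes, was not tested.

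The XX arrays of *Mael* read 8.72, 9.29 and 8.49 at E11.5, 10.03, 9.99 and 9.76 at E12.5, and 11.06, 11.01 and 11.06 at E13.5. The XY arrays read 8.22, 8.69 and 8.98, then 9.62, 9.86 and 9.36, then 10.58, 10.88 and 10.65. No array of a stage overlapped the next stage in either sex. Each step was close to 1 log2 unit, from 1.98-fold in XY cells to E12.5 (adjusted p = 0.0014) to 2.16-fold in XX cells to E13.5 (adjusted p = 1.1e-04). *Mov10l1* rose by 1.62-fold and 1.66-fold in XX and by 1.65-fold and 1.98-fold in XY germ cells at the first and second step. *Ddx4* rose 1.96-fold in XY germ cells to E12.5 (adjusted p = 0.0038), and its 1.57-fold change in XX cells was not called over the 72 arrays (adjusted p = 0.076) but was in the fit of the 18 germ cell arrays alone (4.9e-04). *Ddx4* was called at neither second step. *Asz1* was called at none of the 4 steps, with folds from 1.11 to 1.25.

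*Tdrd1* started at the level of somatic cells. Its arrays read 5.75, 5.46 and 5.57 in XX germ cells at E11.5 and 6.98, 6.95 and 7.08 at E13.5. In XY cells they read 5.55, 5.41 and 5.51 at E11.5, 6.19, 6.52 and 5.98 at E12.5, and 7.30, 8.33 and 8.38 at E13.5. It rose 1.67-fold and 1.59-fold in XX and 1.67-fold and 3.42-fold in XY germ cells at the first and second step. With only the 18 germ cell arrays in the fit, 3 of these calls were lost (adjusted p = 0.054, 0.058 and 0.076), and the last step in XY cells was not among them. *Tdrd9* rose 1.46-fold in XX cells to E12.5 (adjusted p = 0.0017, and 0.071 in that fit), and 1.72-fold in XY cells to E13.5 (adjusted p = 2.9e-06). *Piwil2* rose 1.46-fold in XY cells to E12.5 (adjusted p = 0.021). That call was lost without any of the 3 E11.5 XY arrays or the second E12.5 XY array (adjusted p from 0.063 to 0.29), and in the fit of 18 arrays (0.22). Its change in XX cells to E12.5 (1.27-fold, adjusted p = 0.22) passed without the third E11.5 XX array (0.046), and its change in XY cells to E13.5 (1.31-fold, 0.12) passed without the second E12.5 or the first E13.5 XY array (0.034 and 0.0013).

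*Morc1*, a GHKL ATPase needed for transposon silencing in male germ cells, was the only member called lower at any step. Its XX arrays read 7.97, 7.92 and 7.83 at E11.5, 7.43, 6.61 and 7.04 at E12.5, and 6.23, 6.25 and 6.14 at E13.5. The XY arrays read 7.99, 8.26 and 7.93, then 7.66, 6.82 and 6.98, then 8.53, 8.89 and 8.90. It thus fell in both sexes to E12.5, 1.84-fold in XX (adjusted p = 9.1e-06) and 1.87-fold in XY germ cells (adjusted p = 4.7e-06). After that it fell by another 1.77-fold in XX (adjusted p = 1.2e-05) and rose 3.06-fold in XY germ cells (adjusted p = 3.2e-13). At E13.5 the XX arrays were still above the highest somatic array, 5.35.

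**Figure D2:**
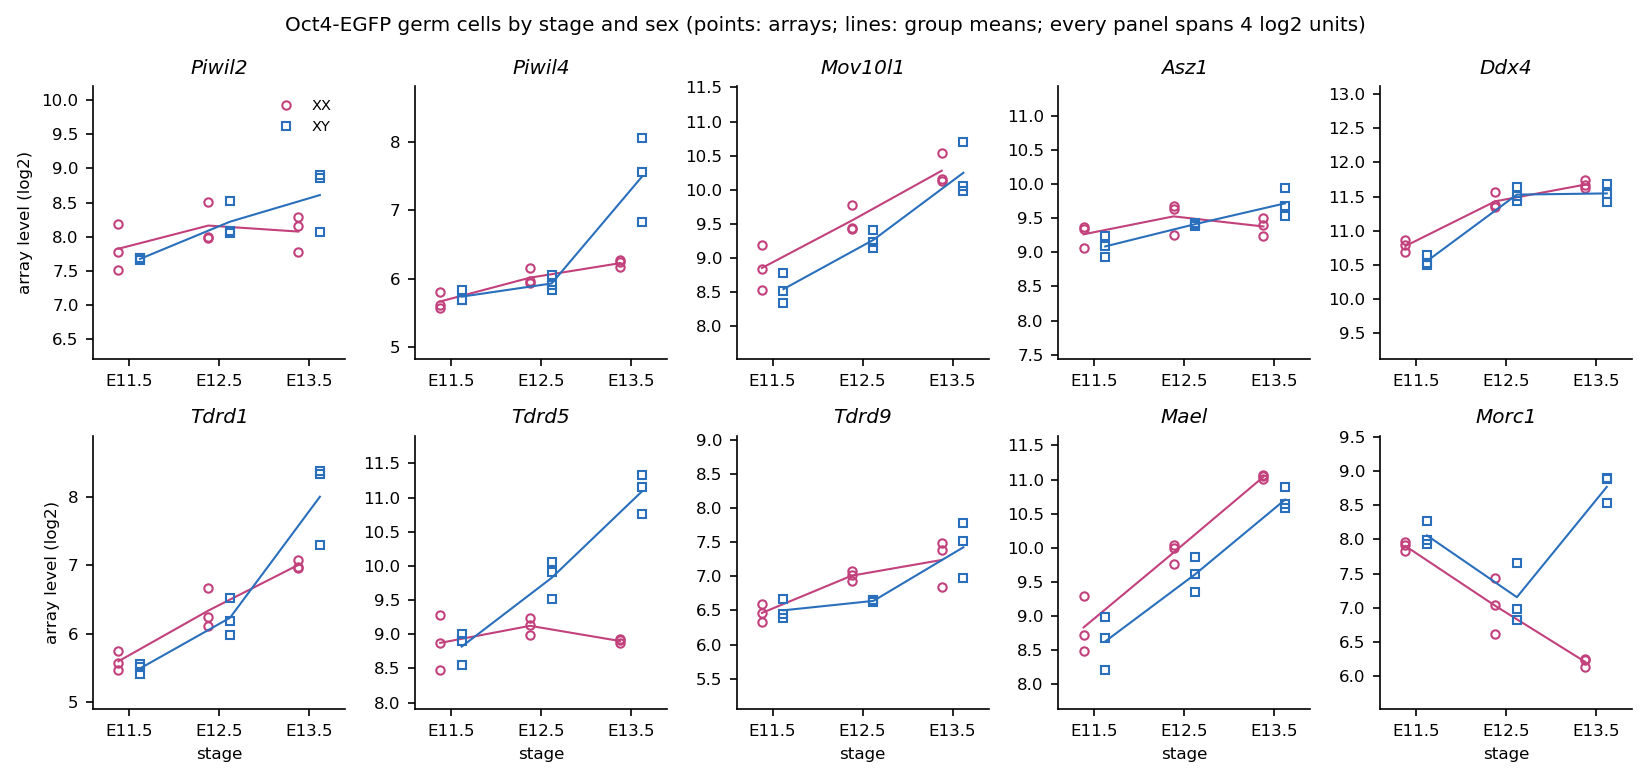
Log2 array level of each gene in *Oct4-EGFP* germ cells at each of the 3 stages, with XX arrays as circles, XY arrays as squares and lines through the group means of 3 arrays. *Mael* and *Mov10l1* rose alongside in both sexes, while *Tdrd5* parted from E12.5 on and *Piwil4* and *Morc1* at E13.5.

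The sexes differed little at first and by 5 members at E13.5. At E11.5 limma called 0 of the 10 between XY and XX germ cells (0.202% of all clusters were called), and *Mov10l1* alone had an unadjusted p under 0.05 (1.24-fold lower in XY, adjusted p = 1). At E12.5, 1 member was called higher in XY germ cells, *Tdrd5* (1.71% of clusters were higher and 2.77% lower). XX and XY arrays of that stage with the same replicate number deviated together (correlations from 0.13 to 0.21 in 3 pairs), and with the number as a block *Tdrd9* was also called, lower in XY (adjusted p = 0.013, and 0.061 without the block). At E13.5, 5 were higher in XY and none lower, where 10.9% of clusters were higher and 10.1% lower. The median difference of the 10 was 0.44 log2 units at E13.5 and 0.02 over all clusters. The 11 germ cell markers averaged 8.59 in XX and 9.06 in XY germ cells at that stage. Neither their part in these differences nor that of the Sertoli markers was tested. From antibody staining that it does not show, the study put supporting cells at under 1% of XY germ cell sorts at E13.5.

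*Morc1* differed most, 5.90-fold at E13.5 (log2 2.56, 95% interval 2.29 to 2.84, adjusted p = 5.8e-22). Each of its 3 XY arrays lay over 2 log2 units above each XX array. *Tdrd5*, a Tudor and LOTUS domain protein of the germ granules, read 8.91, 8.87 and 8.93 in XX and 10.76, 11.16 and 11.34 in XY germ cells at E13.5, a 4.55-fold difference (95% interval of the log2 difference 1.85 to 2.53, adjusted p = 2.2e-15). At E12.5 it read 9.14, 9.24 and 8.99 in XX and 10.06, 9.91 and 9.51 in XY cells. The arrays did not overlap there either, and the difference was 1.63-fold (adjusted p = 0.0058, and 0.077 without the first XY array). In XX germ cells *Tdrd5* was called at neither step, and in XY cells it rose 2.01-fold and then 2.40-fold.

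*Piwil4* read 6.27, 6.18 and 6.24 in XX and 6.84, 7.57 and 8.07 in XY germ cells at E13.5. The XY level was 2.40-fold that of XX cells (adjusted p = 5.2e-12) and had risen 2.94-fold there since E12.5, with no call in XX cells. *Tdrd1* differed 2.00-fold in the same direction (adjusted p = 2.1e-07). The first E13.5 XY array was the lowest of its 3 for 8 of the 10 members and for 27.5% of all clusters, and the SD of the 3 XY arrays was 0.62 for *Piwil4* and 0.61 for *Tdrd1*, against 0.05 and 0.07 in XX cells. The fit used 1 spread for all groups. Over 15 alternatives the adjusted p of the sex difference ran from 7.8e-20 to 1.7e-04 for *Piwil4* and from 2.2e-13 to 0.0033 for *Tdrd1*. Each alternative also took 1 spread per cluster over all groups of its fit. None of them therefore tests the unequal spread of the XX and XY arrays, and these p-values may be too small. *Piwil2* read 8.28, 8.16 and 7.78 in XX and 8.07, 8.90 and 8.86 in XY cells, so the groups overlapped, and its difference was 1.45-fold (adjusted p = 0.0056). It lost the call without the third XX, the second XY or the third XY array (adjusted p = 0.098, 0.094 and 0.077) and in the fit of 18 arrays (0.096).

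*Asz1* missed the threshold at E13.5 (1.26-fold higher in XY, adjusted p = 0.052), with XX arrays at 9.23, 9.50 and 9.40 and XY arrays at 9.68, 9.52 and 9.94. The remaining differences at E13.5 had 95% intervals from -0.75 to 0.08 log2 units for *Mael*, -0.58 to 0.32 for *Ddx4*, -0.32 to 0.26 for *Mov10l1* and -0.05 to 0.42 for *Tdrd9*. *Tdrd9* was called higher in XY cells without the first E13.5 XY array (adjusted p = 0.0065), and *Asz1* without the second XX or the second XY array (0.045 and 0.025).

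**Figure D3:**
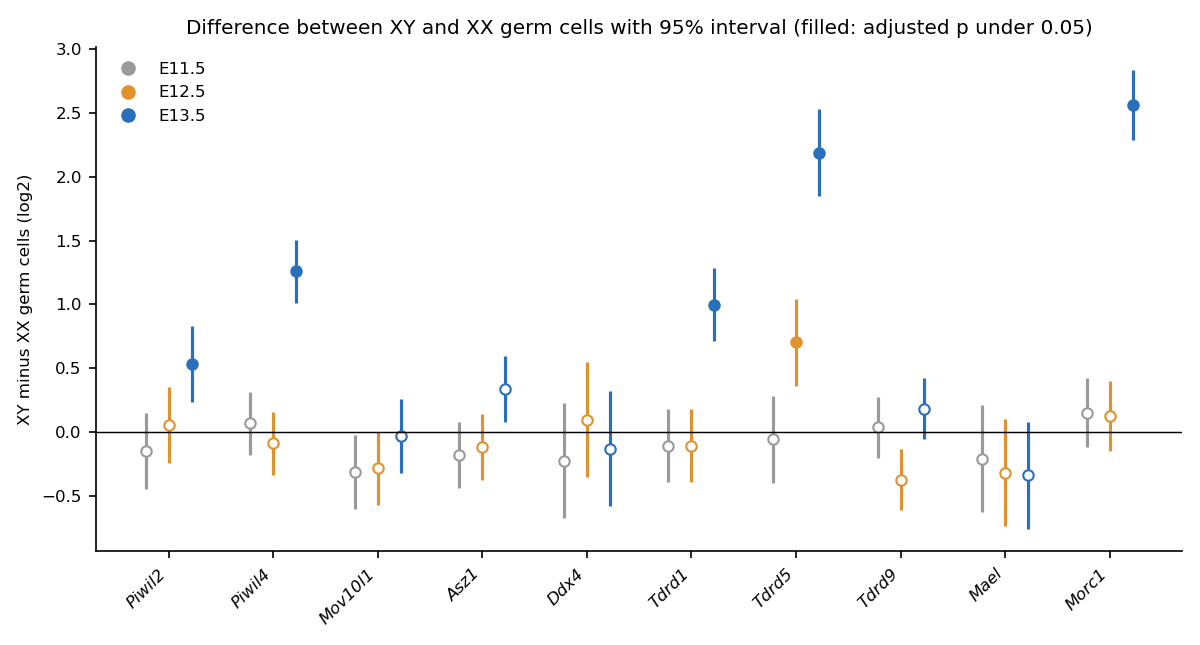
Difference between XY and XX germ cells in log2 units for each gene at the 3 stages, with 95% intervals from limma and 3 arrays in each group. Filled points passed an adjusted p of 0.05. *Morc1*, *Tdrd5*, *Piwil4*, *Tdrd1* and *Piwil2* are filled at E13.5, and *Tdrd5* at E12.5.

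The change of the sex difference itself was tested as an interaction. Between E11.5 and E13.5 it was called for 5 members (4.74% of clusters in this direction): *Morc1* by 2.41 log2 units (adjusted p = 3.4e-14), *Tdrd5* by 2.24 (4.7e-10), *Piwil4* by 1.19 (1.1e-06), *Tdrd1* by 1.10 (8.4e-05) and *Piwil2* by 0.68 (0.027). Between E12.5 and E13.5 it was called for *Morc1*, *Tdrd5*, *Piwil4* and *Tdrd1*, 4 of the 10 (1.94% of clusters). Between E11.5 and E12.5 limma called 0 of the 10 (0.713% of clusters), and *Tdrd5* and *Tdrd9* had an unadjusted p under 0.05. *Piwil2* lost its call without any of 5 arrays (the third E11.5 XX, the third E11.5 XY, the third E13.5 XX, and the second and the third E13.5 XY array), with adjusted p from 0.053 to 0.16, and in the fit of 18 arrays (0.20). Between E12.5 and E13.5 *Tdrd1* lost its call in that fit (0.059). *Tdrd9* (0.56 log2 units) missed the threshold over the 72 arrays (adjusted p = 0.050) and passed without the second or the third XX or the first XY array of E13.5 (0.034, 0.018 and 6.3e-04). Between E11.5 and E12.5 *Tdrd5* passed without the third E11.5 XX array (0.045). At the limits of the study, an unadjusted p below 0.05 with a fold above 1.5, *Tdrd5* was called there (1.69-fold, 2.87% of clusters in either direction).

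The upstream sequences of members that came to differ between the sexes (*Tdrd5*, *Piwil4*, *Tdrd1*) and of members that were not called between them (*Ddx4*, *Mael*, *Mov10l1*) are set side by side, since CpG-rich promoters of germ line genes are known to be kept silent in somatic cells by DNA methylation. Each gives the 250 bases before the most upstream RefSeq start, build GRCm38.p6, 5′ to 3′ on the strand of the gene, with CG pairs in capitals.
*Tdrd5*, chr1:156303349-156303598, minus strand: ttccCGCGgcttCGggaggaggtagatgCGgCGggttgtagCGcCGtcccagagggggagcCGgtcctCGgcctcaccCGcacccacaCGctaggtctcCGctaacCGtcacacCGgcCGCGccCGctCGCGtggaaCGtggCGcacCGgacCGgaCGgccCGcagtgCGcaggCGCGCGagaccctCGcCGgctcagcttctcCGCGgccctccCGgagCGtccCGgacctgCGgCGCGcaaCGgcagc
*Piwil4*, chr9:14740673-14740922, minus strand: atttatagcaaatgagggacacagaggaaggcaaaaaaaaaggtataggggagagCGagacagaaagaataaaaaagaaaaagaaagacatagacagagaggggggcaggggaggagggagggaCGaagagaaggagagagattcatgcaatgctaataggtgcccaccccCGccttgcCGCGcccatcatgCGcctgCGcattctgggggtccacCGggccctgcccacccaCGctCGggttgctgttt
*Tdrd1*, chr19:56825959-56826208, plus strand: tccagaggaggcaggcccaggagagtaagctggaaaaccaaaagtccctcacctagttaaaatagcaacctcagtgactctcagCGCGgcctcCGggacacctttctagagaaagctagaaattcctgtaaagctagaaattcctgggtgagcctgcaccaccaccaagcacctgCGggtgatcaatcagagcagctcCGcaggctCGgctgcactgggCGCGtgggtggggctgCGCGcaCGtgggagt
*Ddx4*, chr13:112652311-112652560, minus strand: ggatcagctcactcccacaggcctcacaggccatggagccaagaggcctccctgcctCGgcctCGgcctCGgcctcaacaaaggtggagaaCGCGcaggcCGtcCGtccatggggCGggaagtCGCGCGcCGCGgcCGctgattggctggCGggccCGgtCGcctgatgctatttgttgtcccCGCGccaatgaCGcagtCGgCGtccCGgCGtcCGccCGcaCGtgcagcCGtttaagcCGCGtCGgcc
*Mael*, chr1:166238745-166238994, minus strand: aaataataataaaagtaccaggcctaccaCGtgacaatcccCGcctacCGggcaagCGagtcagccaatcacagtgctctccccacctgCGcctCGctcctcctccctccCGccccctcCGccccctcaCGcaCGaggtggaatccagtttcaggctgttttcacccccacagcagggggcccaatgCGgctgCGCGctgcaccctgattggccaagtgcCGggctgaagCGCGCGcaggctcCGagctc
*Mov10l1*, chr15:88982744-88982993, plus strand: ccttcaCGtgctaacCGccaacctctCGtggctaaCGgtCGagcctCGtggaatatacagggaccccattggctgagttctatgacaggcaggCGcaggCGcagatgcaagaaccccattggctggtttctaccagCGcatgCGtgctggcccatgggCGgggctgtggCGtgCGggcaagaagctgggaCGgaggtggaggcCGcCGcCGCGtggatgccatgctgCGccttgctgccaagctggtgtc

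Over 27025 genes the median was 6 CG pairs in this window. The 8 members with an entry held from 8 (*Tdrd9*) to 40 (*Tdrd5*). *Tdrd5* had more than 98.7% of genes and *Ddx4*, with 31, more than 95.1%. *Mov10l1* held 19, *Mael* 18, *Asz1* 15, *Tdrd1* 11 and *Piwil4* 10 pairs, so *Tdrd5*, *Piwil4* and *Tdrd1* ran from 10 to 40. *Morc1* and *Piwil2* have no entry. The letters CACGTG, the same on both strands, occurred in *Mov10l1*, *Ddx4*, *Tdrd1*, *Tdrd9* and *Mael*, 5 of the 8, and in 6.0% of all genes. The letters TATAAA, searched on both strands, were found in *Piwil4* alone and in 13.0% of genes. A match is a description of the sequence only.

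Other genes of the pathway were counted as a list of 20, of which 15 were tested. A gene can reach the limit for testing in germ cell groups alone, which in part sets its difference from somatic cells. How many of the 15 did so was not counted. *Piwil1*, *Tdrd6* and *Henmt1* stayed under the limit in every group, and *Fkbp6* and *Spocd1* were not analysed here. At E13.5, 13 of the 15 were higher in XX germ cells than in the somatic sorts and none was lower, where 26.3% of all clusters were higher and 26.6% lower. The 5 with the smallest adjusted p were *Stk31* (56.0-fold), *Tdrd12* (13.5-fold), *Rnf17* (20.1-fold), *Tdrkh* (11.8-fold) and *Gtsf1* (9.13-fold). Tdrkh tethers PIWI proteins to mitochondria and Gtsf1 is a partner of PIWI proteins in cutting. Between XY and XX germ cells 4 were higher and 2 lower at E13.5 (10.9% and 10.1% of all clusters), and the median of the list was -0.04 log2 units. *Exd1*, a partner of *Tdrd12* in piRNA production, was 2.02-fold higher in XY (adjusted p = 5.5e-05), *Prmt5*, which methylates PIWI proteins, 1.94-fold (1.3e-04), *Tdrd12* 1.66-fold (9.9e-06) and *Gtsf1* 1.44-fold (0.040). *Tex15*, needed for piRNA-directed methylation, was 1.81-fold lower in XY cells (0.0048), and *Gpat2*, a mitochondrial protein that binds *Piwil2*, 1.37-fold lower (0.0088). *Rnf17*, *Tdrkh* and *Stk31* were not called.

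Of 15 genes for chromatin silencing of transposons, 13 were tested. *Dnmt3l*, the cofactor of DNA methylation in fetal male germ cells, stayed between 4.71 and 5.14 in the 18 germ cell arrays and was not tested. At E13.5, 6 of the 13 were higher and 3 lower in XX germ cells than in somatic sorts, beside the same 26.3% and 26.6% of all clusters. *Hells*, a chromatin remodeller, was 5.08-fold higher, *Suv39h2* 4.38-fold, *Dnmt1* 2.35-fold and *Setdb1* 1.99-fold, while the DNA methyltransferases *Dnmt3a* and *Dnmt3b* were 2.14-fold and 1.63-fold lower and *Cbx5*, a heterochromatin protein, 1.14-fold lower. Between the sexes at E13.5, 2 were higher and 1 lower in XY cells (10.9% and 10.1% of all clusters), shares near those of all clusters. These were *Trim28* (1.32-fold higher), *Ehmt2* (1.28-fold higher) and *Hells* (1.27-fold lower). *Dnmt1* (1.19-fold lower, adjusted p = 0.061) and *Dnmt3b* (1.19-fold higher, 0.088) missed the threshold. Beside these, all 8 meiotic entry genes were lower in XY germ cells at E13.5, with *Stra8* 29.2-fold lower.

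**Figure D4:**
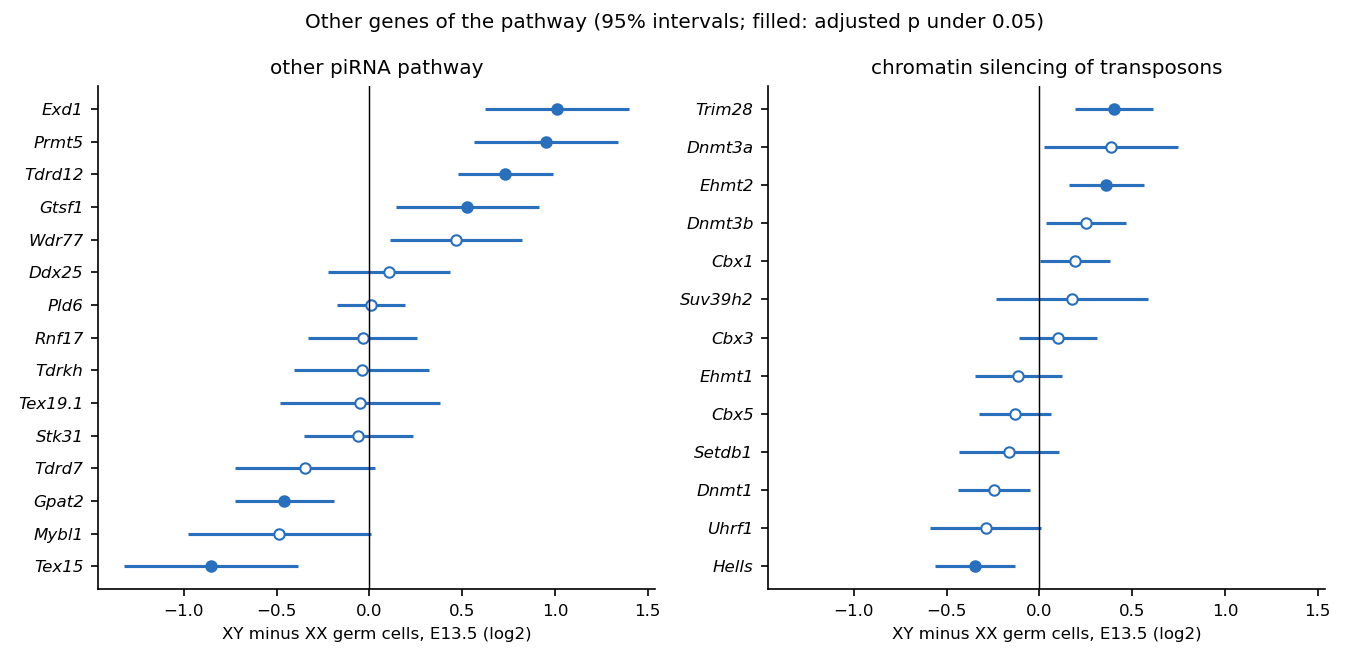
Difference between XY and XX germ cells at E13.5 in log2 units, with 95% intervals from limma, for 15 other piRNA pathway genes and 13 genes of chromatin silencing. Filled points passed an adjusted p of 0.05, 4 of the first list above 0 and 2 below, and 2 and 1 of the second.

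Across the 18 germ cell arrays, which share sex and stage, the members most alike were *Piwil4* and *Tdrd1* (Pearson r = 0.92) and *Mov10l1* and *Mael* (0.91), and *Ddx4* and *Morc1* ran most apart (-0.43). Among the genes outside the group, *Piwil4* was most like *Nxf2* (0.97) and *Gm1141* (0.95), *Tdrd1* like *Slc9a7* (0.97) and *Igf1r* (0.96), and *Tdrd5* like *Foxp1* and *Cep120* (both 0.96). *Mael* was most like *Dcaf6* (0.97) and *Sycp1* (0.96), *Ddx4* like *Dazl* and *Arfgef1* (both 0.96), and *Mov10l1* like *Ccni* (0.97) and *Abcb6* (0.96). *Tdrd9* was most like *Txndc16* (0.93) and *Rnf17* (0.92), and *Morc1* like *Washc2* (0.93) and *Mrpl45* (0.91). *Piwil2*, with *Srpk2* (0.88) and *Prmt7* (0.87), and *Asz1*, with *Smurf1* (0.87) and *Slc12a2* (0.86), had the loosest matches.

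*Tdrd5* stood out among the members for its levels in somatic cells. In XX *Sry-EGFP* supporting cells at E11.5 its arrays read 7.55, 7.78 and 8.28, close under the lowest germ cell array (8.47). In XY *Sry-EGFP* cells of that stage they read 6.92, 7.06 and 7.30, below every XX array, and the level was 1.72-fold lower in XY (adjusted p = 7.8e-04, and 3.92% of clusters were called lower). Against the mean of the other somatic lineages it was 2.78-fold higher in XX and 1.58-fold higher in XY supporting cells (adjusted p = 2.8e-12 and 3.0e-04, with 16.4% and 16.1% of clusters higher). By E13.5 it had fallen 2.22-fold in XX and 1.40-fold in XY supporting cells (adjusted p = 6.3e-07 and 0.028, with 4.20% and 10.2% of clusters lower). The fall in XY cells, where the reporter changed as well, was not called without the third E11.5 or the first or the third E13.5 array (0.14, 0.084 and 0.081). *αSma-EYFP* cells read 7.82, 7.29 and 6.75 in XX and 7.06, 6.68 and 7.03 in XY gonads at E11.5. Per the study, these cells appeared to include supporting cells at that stage, so they do not stand apart from the supporting cell sort. The mean of the germ cell markers was 6.10 in XX and 6.09 in XY supporting cells at E11.5, the pre-granulosa markers averaged 9.21 and 7.67 there, and the part of either in the *Tdrd5* difference was not tested.

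*Piwil2* was higher in XY *Sox9-ECFP* than in XX *Sry-EGFP* supporting cells at both later stages, the only member called there (16.9% and 14.7% of clusters were higher). At E13.5 it read 6.38, 6.78 and 6.51 in XY and 6.10, 6.16 and 5.92 in XX cells, with no overlap, a 1.41-fold difference (adjusted p = 0.0077). At E12.5 the difference was 1.34-fold (adjusted p = 0.025). Reporter and sex cannot be told apart here, and the differences lost their calls without any of 4 arrays at E12.5 (the first and the second XX, and the second and the third XY) and any of 2 at E13.5 (the third XX and the second XY). Their adjusted p then ran from 0.054 to 0.15 and from 0.051 to 0.081. At the limits of the study neither was called (17.1% and 16.6% of clusters in either direction). The group means at E13.5, 6.56 in XY and 6.06 in XX cells, were at or under the lower end of the medians of whole arrays (6.56 to 6.81). Signal over background therefore limits this difference. Compared with the mean of the other somatic lineages at E13.5, XY supporting cells had 1.53-fold more *Piwil2* (adjusted p = 1.1e-04, 17.5% of clusters higher). From E11.5 to E13.5 it rose 1.45-fold in XY supporting cells (adjusted p = 0.0054, and 0.061 without the second E13.5 array). Reporter and stage cannot be told apart in that comparison.

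In *Flk1-mCherry* cells of E13.5 gonads, the XY level of *Tdrd5* exceeded the XX level 1.56-fold (adjusted p = 0.013, 3.82% of clusters higher), with XY arrays at 6.95, 6.98 and 7.16 and XX arrays at 6.61, 6.27 and 6.29. The fetal Leydig markers in this XY sort averaged 10.71, against 5.59 in XX. The red blood cell markers averaged 9.45 against 8.33 (*Hba-x* 11.16 against 9.03) and the Sertoli markers 6.66 against 6.41 (*Cst9* 5.85 against 4.74), and *Pdgfra*, a mesenchymal marker, was at 8.67 against 7.51. The part of these markers was not tested. The call was lost without the second or the third XX or the third XY array (adjusted p = 0.081, 0.056 and 0.062). Within the *αSma-EYFP* sort limma called 0 of the 10 between the sexes at any stage, with 0 at an unadjusted p under 0.05, beside 0.249%, 5.15% and 5.73% of clusters called in either direction at successive stages. The same held for *Flk1-mCherry* cells at E11.5 (0.981% of clusters), and at E12.5 1 member had an unadjusted p under 0.05 and none was called (3.55%).

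Several members increased with stage in the *Flk1-mCherry* sort. From E11.5 to E13.5, 2 of the 10 rose in XX cells (1.79% of clusters) and 4 in XY cells (8.41%), where *Asz1* rose 1.38-fold and *Tdrd5* 1.53-fold. In supporting cells 1 rose in XX and 2 in XY gonads (7.78% and 14.0% of clusters), and in XY gonads the reporter of supporting cells changed as well. *Mael* read 4.90, 4.82 and 4.90 in XX cells at E11.5 and 6.44, 6.00 and 5.99 at E13.5 (2.41-fold, adjusted p = 3.0e-05), and it rose 2.08-fold in XY cells (adjusted p = 2.1e-04). *Ddx4* rose 2.01-fold in XX and 1.75-fold in XY cells of this sort (adjusted p = 0.0029 and 0.010), and 1.61-fold and 1.56-fold in supporting cells (0.033 and 0.030). Its calls in supporting cells were lost without any of 4 XX arrays (adjusted p from 0.051 to 0.56) or any of 5 XY arrays (0.052 to 0.12). Those of *Asz1* and *Ddx4* in XY *Flk1-mCherry* cells were lost without the second E13.5 array (0.13 and 0.078), and that of *Tdrd5* without the second E11.5 array (0.064). Other germ cell markers moved with them. *Dazl* went from a mean of 4.97 to 6.19 in XX and from 5.04 to 6.60 in XY *Flk1-mCherry* cells, and from 4.80 to 5.83 in XX supporting cells. Of the 11 germ cell markers, 6 were over log2 6 in the XX and 7 in the XY sort at E11.5, and 7 and 9 at E13.5. Their mean was 6.21 and 6.35 at E11.5 and 6.71 and 6.96 at E13.5, and that of supporting cells was 6.26 in XX and 6.30 in XY gonads at E13.5. The part of germ cells in these sorts was not tested. *Ddx4* reached 6.65, 5.11 and 5.72 in the 3 XX supporting arrays of E13.5, so single arrays of a group differed by over 1 log2 unit.

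**Figure D5:**
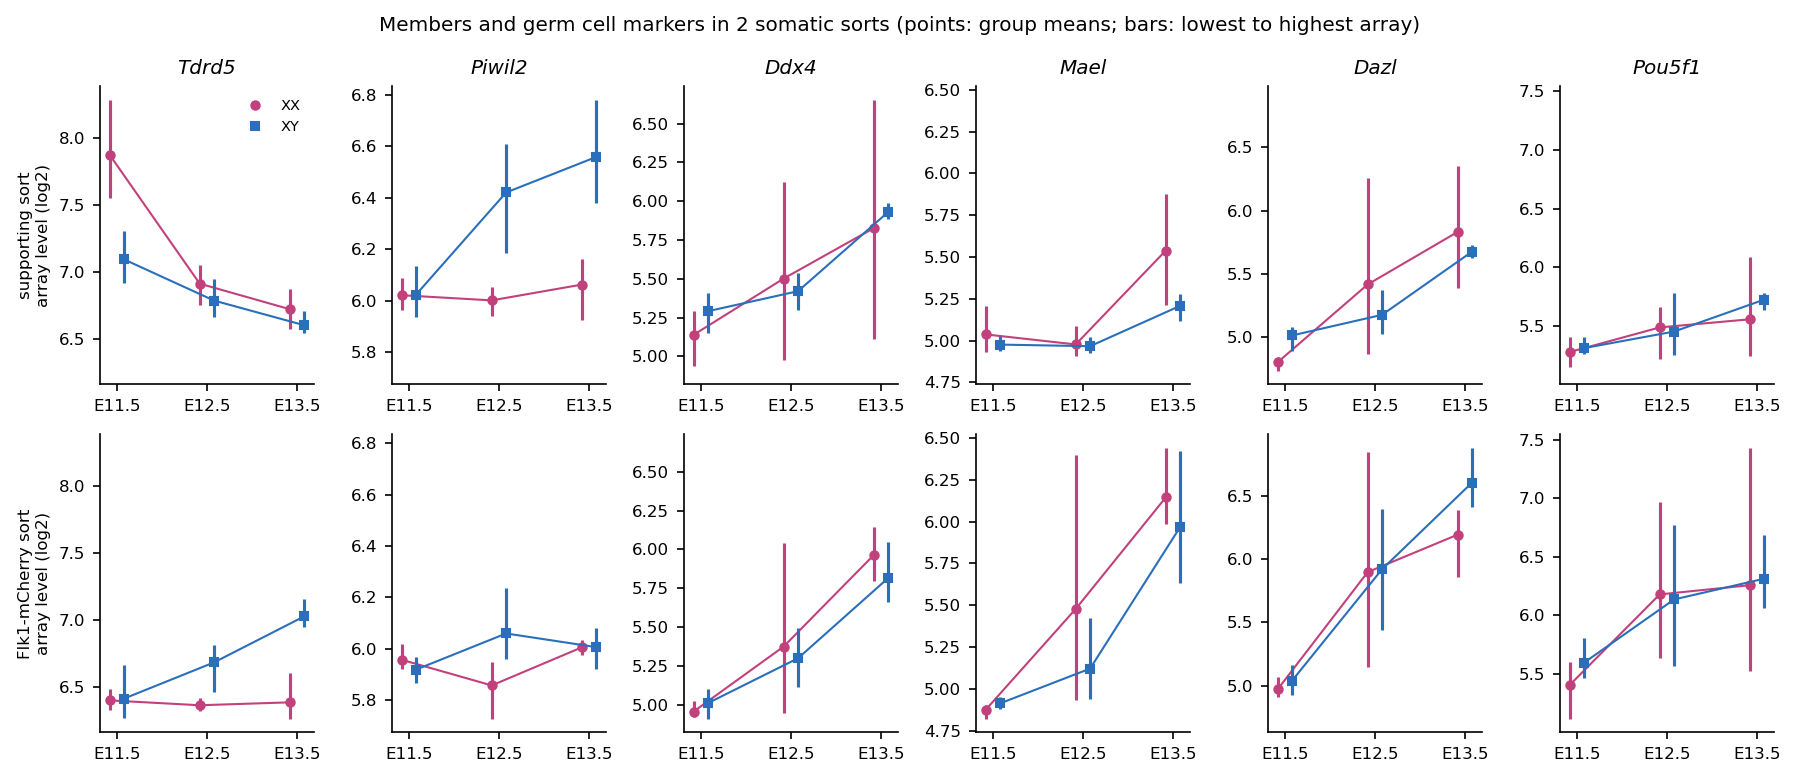
Log2 array level of *Tdrd5*, *Piwil2*, *Ddx4* and *Mael* and of the germ cell markers *Dazl* and *Pou5f1* in supporting (top) and *Flk1-mCherry* cells (bottom) by stage, as means of 3 arrays with bars from the lowest to the highest array. *Tdrd5* fell in supporting cells, *Piwil2* rose in XY supporting cells, and *Ddx4* and *Mael* rose in *Flk1-mCherry* cells, where the mean of *Dazl* was also higher at E13.5 than at E11.5. The reporter of XY supporting cells was *Sry-EGFP* at E11.5 and *Sox9-ECFP* afterwards. Only at E11.5 did the *Flk1-mCherry* sort include a part of the mesonephros.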

How the data were processed

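The authors hybridised amplified RNA of sorted gonadal cells to Affymetrix Mouse Gene 1.0 ST arrays, scanned them with GCOS and summarised them in Partek by RMA with probe GC and sequence adjustment. They deposited log2 intensities of 35557 transcript clusters on 91 arrays. Per the methods, all 91 arrays were processed together for the *αSma-EYFP* analysis and 72 for the rest, and which processing gave the deposited table is not given in the sources used here. Values were used as deposited.

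Of the clusters, 21789 name 1 gene (19938 genes), and those over log2 6 in at least 2 of the 3 arrays of a group were tested (16820, or 16859 with the *αSma-EYFP* arrays). Group means were compared with limma 3.58.1 (lmFit, eBayes) in R 4.3.3 over 72 arrays, or 90 for *αSma-EYFP* cells, two-sided, with Benjamini-Hochberg adjustment over all tested clusters. A call is an adjusted p under 0.05. The procedure was tested on simulated data. Members and gene lists were chosen with earlier results of these data known. The text names every member, up to 5 genes of each pathway list by adjusted p in the E13.5 XY against XX germ cell comparison and in the E13.5 XX germ cell against somatic comparison, the 2 genes most correlated with each member, and markers on which the check of a sort turns. *Stra8* and the genes that complete a count (such as *Dnmt3a* and *Cbx5*) were named after their values were seen. Comparisons of supporting cells with the other somatic sorts, and of somatic sorts between E11.5 and E13.5, were added after seeing the data. Cells of an array were pooled from 1 or more litters, and the methods call the arrays of a group biological replicates. The p-values set a difference against the spread between such pools, taken per cluster as 1 value over all groups of a fit. For groups that vary more than that value, the p-values are too small. Deviations of same-numbered XX and XY arrays from the group means correlated over 0.1, a limit set here, in all 3 pairs only for E12.5 germ cells. Single pairs of other stages and sorts were also over 0.1, up to 0.23 in E11.5 germ cells and 0.36 in E13.5 *αSma-EYFP* cells. The number of arrays limits the precision. Promoters are from the RefSeq table of build GRCm38.p6. Results of 1 further somatic sort on its own are not reported here.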

Additional observations from a re-analysis of the deposited data

Results flagged for a closer look

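The difference between XY and XX germ cells changed between stages for 5 members, by the interaction in limma. From E11.5 to E13.5 it increased by 2.41 log2 units for *Morc1*, 2.24 for *Tdrd5*, 1.19 for *Piwil4*, 1.10 for *Tdrd1* and 0.68 for *Piwil2*. From E12.5 to E13.5 it increased by 2.44 for *Morc1*, 1.48 for *Tdrd5*, 1.34 for *Piwil4* and 1.10 for *Tdrd1*. Groups of 3 arrays are too small for a test of single arrays that stand apart.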

How the results depend on the processing

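Under the alternatives, 66 of 3355 values of single members lost a call, 38 gained one and 0 called values changed direction. Among uncalled values 58 changed sign. Of 962 counts of called members, 19 moved. In XY against XX germ cells at E12.5, 1 member (*Tdrd9*, adjusted p = 0.010, 0.033 and 0.013) was called lower with array weights, with 90 arrays in the fit and with the replicate block, against 0, and leaving out 1 array gave 0 to 1 higher calls against 1. At the limits of the study, an unadjusted p below 0.05 with a fold above 1.5, the change of the sex difference between E11.5 and E12.5 had 1 higher call (*Tdrd5*) against 0, and supporting cells had 0 against 1 at E12.5 as at E13.5. Leaving out 1 array gave 0 to 1 higher calls for that change, for supporting cells at E12.5 and at E13.5 and for *Flk1-mCherry* cells at E13.5. With the replicate block, 1 member was called lower in XY supporting cells and 1 higher in XY *Flk1-mCherry* cells at E12.5, against 0. With array weights the changes of *Asz1*, *Ddx4* and *Tdrd5* in XY *Flk1-mCherry* cells from E11.5 to E13.5 lost their calls (adjusted p = 0.12, 0.074 and 0.17). Deviations of same-numbered XX and XY arrays from the group means correlated from -0.31 to 0.36 over 45 pairs, 13 of them over 0.1, and from 0.01 to 0.23 over the 9 germ cell pairs, 7 of them over 0.1. With the block the change of the sex difference was also called for *Tdrd9* between E12.5 and E13.5 (adjusted p = 0.011) and for *Asz1* between E11.5 and E13.5 (0.034). *Asz1* at E13.5 passed with the block (adjusted p = 0.026), with centring on array medians (0.045) and with the limit for testing at log2 7 (0.046). It also passed with trend and robust settings of eBayes (0.048) and with 90 arrays in the fit (0.047). Over its 15 alternatives its adjusted p ran from 0.025 to 0.33. Each member had 1 cluster, so another cluster could not be tried. Signal over background limits *Piwil4* and *Tdrd1* at E11.5. The cause of these changes was not tested.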

Other observations

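On the array of the whole newborn mouse, which belongs to no comparison, all 10 members lay within the range of the 72 somatic arrays, as did 78.5% of all clusters tested. *Tdrd5* read 6.19, *Tdrd9* 6.32, *Piwil2* 5.76 and *Ddx4* 4.93 there.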
